A study of Mus musculus with 20 samples.

Results

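Core gluconeogenesis and its coactivators were followed as 10 genes, among 19505 genes with a symbol on the array. The 10 genes were chosen by name, with earlier results of these data known. They are the enzyme genes Pck1, Pck2, G6pc, Fbp1 and Pcx, the transaminase genes Got1 and Gpt2, the coactivator genes Ppargc1a and Crtc2, and the transcription factor gene Creb3l3. Each had 1 probe set, so no choice between probe sets was needed. The measurements come from livers of 20 mice, 5 in each of 4 groups: fasted Mcl1(L-/-), fed Mcl1(L-/-), fasted WT and fed WT. Fasted mice were kept alone in wire-bottom cages for 48 h without food, fed mice had food at all times, and all had water. In Mcl1(L-/-) mice, called Mcl1KO here, the floxed alleles (Mcl1(F/F)) of the anti-apoptotic gene Mcl1 had been deleted by AAV-LP1-Cre, an adeno-associated virus in which LP1, a liver promoter, drives Cre recombinase. The same protocol text is attached to the WT samples, and whether WT mice carried floxed alleles or received a virus is not stated in the labels. The effects of virus, Cre and loss of Mcl1 therefore cannot be told apart. Strain, sex and age are also not stated.

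Gluconeogenesis makes glucose from lactate, glycerol and amino acids, and in the liver it feeds the blood during a fast. Pyruvate is carboxylated to oxaloacetate by pyruvate carboxylase (Pcx), oxaloacetate becomes phosphoenolpyruvate through PEPCK (Pck1 in the cytosol, Pck2 in mitochondria), and fructose-1,6-bisphosphatase (Fbp1) and the catalytic subunit of glucose-6-phosphatase (G6pc) release glucose at the end. Glucagon acts through cyclic AMP and CREB with its coactivator CRTC2, and CREB in turn activates Ppargc1a, whose product PGC-1α coactivates gluconeogenic genes.

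Values are log2 signals made by the authors with RMA, so a difference of 1 is a 2-fold change. Mcl1 was lower in Mcl1KO than in WT livers, by 1.14 on the log2 scale in fasted mice (SE 0.12, limma adjusted p = 4.47e-06) and by 1.34 in fed mice (adjusted p = 5.07e-07), with no overlap of arrays in either state. Hepatocyte markers were high in all groups, with a mean over 8 genes of 11.74 to 11.86 in fasted Mcl1KO, 11.76 to 11.91 in fed Mcl1KO, 11.78 to 11.86 in fasted WT and 11.80 to 11.87 in fed WT livers. Fasted Mcl1KO replicates 3 and 4 stood apart from their group on the first principal component (34.2% of the variance), at 18.3 and 27, against 42.1 to 46.8 for the other fasted Mcl1KO livers and 6.61 to 18.4 for fasted WT livers. Calls of the 10 genes that change without them are given both ways.

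The letters upstream of the start sites are shown for the classic cyclic AMP targets Pck1, G6pc and Ppargc1a, and for Got1 and Gpt2, the transaminase genes. The windows hold the 250 bases before the RefSeq start on GRCm38.p6, and the table had a window for 9 of the 10 genes. They lie at chr2:173152823-173153072 (plus strand) for Pck1, chr11:101367466-101367715 (plus) for G6pc, chr5:51567726-51567975 (minus) for Ppargc1a, chr19:43524606-43524855 (minus) for Got1 and chr8:85492326-85492575 (plus) for Gpt2. They read 5′ to 3′ towards the start site, with capitals on matches to the cyclic AMP response element letters TNACGTNA, its 5-base core TGACG, or the amino acid response letters TGATGNAA, each on either strand:
Pck1: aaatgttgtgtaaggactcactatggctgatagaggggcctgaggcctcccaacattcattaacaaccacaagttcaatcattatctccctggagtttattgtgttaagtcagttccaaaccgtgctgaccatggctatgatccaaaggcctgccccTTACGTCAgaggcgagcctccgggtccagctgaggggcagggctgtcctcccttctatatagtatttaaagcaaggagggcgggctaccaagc
G6pc: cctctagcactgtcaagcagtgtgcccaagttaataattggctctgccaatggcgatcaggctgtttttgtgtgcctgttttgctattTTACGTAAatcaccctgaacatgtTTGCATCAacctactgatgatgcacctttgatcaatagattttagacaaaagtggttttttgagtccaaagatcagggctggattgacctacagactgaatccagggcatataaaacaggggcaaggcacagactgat
Ppargc1a: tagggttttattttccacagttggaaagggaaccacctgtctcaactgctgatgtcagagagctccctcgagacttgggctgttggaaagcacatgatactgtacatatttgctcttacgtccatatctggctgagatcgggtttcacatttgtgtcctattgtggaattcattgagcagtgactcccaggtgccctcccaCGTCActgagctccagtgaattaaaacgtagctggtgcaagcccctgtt
Got1: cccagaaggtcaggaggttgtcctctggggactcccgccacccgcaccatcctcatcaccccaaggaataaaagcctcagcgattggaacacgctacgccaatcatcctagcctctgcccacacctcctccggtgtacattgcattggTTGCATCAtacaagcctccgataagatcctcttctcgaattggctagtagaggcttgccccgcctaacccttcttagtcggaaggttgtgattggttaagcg
Gpt2: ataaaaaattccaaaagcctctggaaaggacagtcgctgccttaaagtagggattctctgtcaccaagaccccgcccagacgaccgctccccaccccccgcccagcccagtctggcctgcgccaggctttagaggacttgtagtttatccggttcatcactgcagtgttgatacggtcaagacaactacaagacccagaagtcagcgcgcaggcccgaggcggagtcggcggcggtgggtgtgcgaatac

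Pck1 held TTACGTCA at -93 to -86 from the start, where base -1 is the last before it, and the core TGACG lies inside that match on the opposite strand. G6pc held TTACGTAA at -162 to -155 and TTGCATCA, a match to TGATGNAA on the opposite strand, at -138 to -131. Ppargc1a held the core alone, on the opposite strand at -49 to -45. Got1 held TTGCATCA at -102 to -95, and the Gpt2 window held none of these letters. Among all 32851 windows of that length, 3.83% held TNACGTNA, 17.8% held TGACG, 3.45% held TGATGNAA and 3.17% held the FOXO letters GTAAACA. Of the 11 windows of these genes (Pcx and Creb3l3 had several starts), 2 held TNACGTNA, 3 held TGACG, 3 held TGATGNAA and 0 held GTAAACA. The letters TNACGTNA were widened after the Pck1 and G6pc windows had been seen, and a match describes letters and not binding.

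Fasting raised 7 of the 10 genes in Mcl1KO livers and 7 of 10 in WT livers, and none passed the test downwards in either genotype. In Mcl1KO livers the 7 were Got1 (4.47-fold), Ppargc1a (3.12-fold), Gpt2 (2.49-fold), Pcx (1.73-fold), Crtc2 (1.38-fold), Creb3l3 (1.36-fold) and Fbp1 (1.23-fold). In WT livers they were Got1 (3.66-fold), Ppargc1a (3.48-fold), Gpt2 (2.27-fold), Pcx (1.69-fold), Pck1 (1.57-fold), Crtc2 (1.5-fold) and Creb3l3 (1.37-fold). Pck2 and G6pc passed in neither genotype. The test was limma across all 22206 probe sets, with 1 mean per group over all 20 arrays and Benjamini-Hochberg adjustment, and a gene was called at an adjusted p under 0.05. Over all probe sets, 14.4% were called for fasting in Mcl1KO and 6.79% in WT livers. As shares of all probe sets, 8.2% and 3.1% were higher with fasting and 6.25% and 3.68% lower. In a fit on the 9860 probe sets with a log2 value over 4 on at least 5 arrays, 3304 and 1692 were called. That fit called 7 of the 10 genes in each genotype. The called share is therefore larger among brighter probe sets than over all probe sets. The median log2 difference of the 10 genes was 0.45 in Mcl1KO and 0.62 in WT livers, beside 0.00 and 0.01 over all probe sets. In 6 of the 10 genes the fasted and fed arrays did not overlap, in each genotype, where 10.2% of all probe sets did not overlap in Mcl1KO and 7.36% in WT livers. Since the 10 genes were chosen with earlier results of these data known, the shares beside them are a description and not a test. These are bulk livers, so fewer cells of a type and less RNA per cell cannot be told apart.

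**Figure D1:**
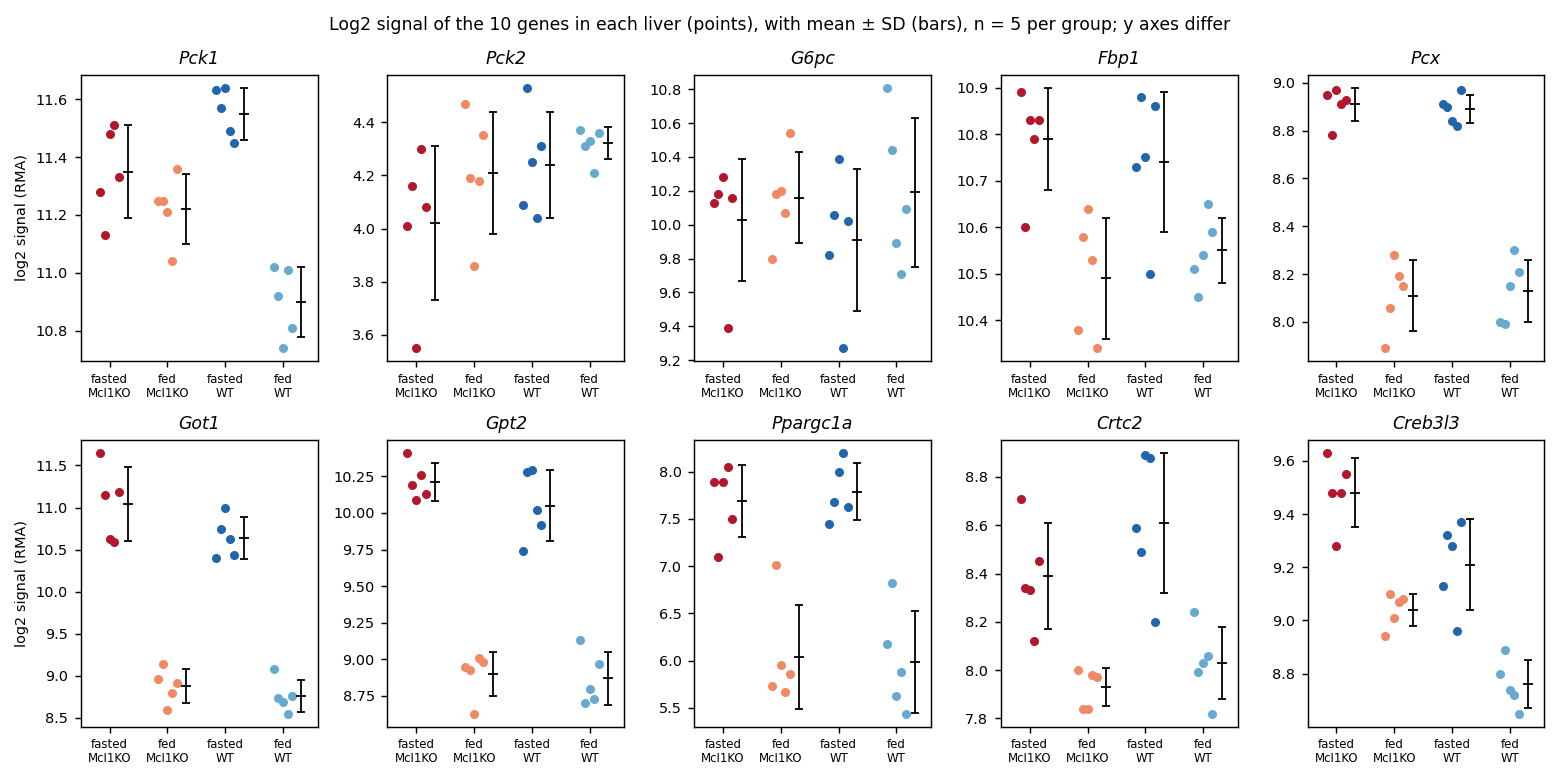
Log2 signal (RMA) of each of the 10 genes in each liver, 1 panel per gene with its own y axis. Points are mice and bars are the mean ± SD of the 5 mice of a group. Got1, Gpt2, Pcx and Ppargc1a show fasted livers above fed livers in both genotypes, G6pc and Pck2 show overlapping groups, and Pck1 is lowest in fed WT livers.

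**Figure D2:**
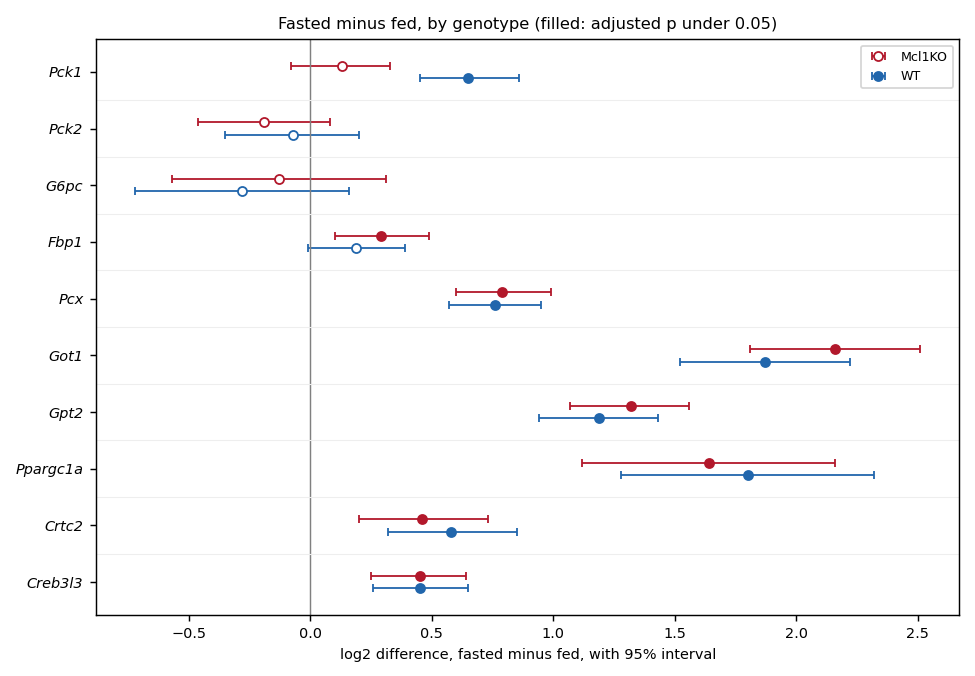
Fasted minus fed log2 difference of each gene in Mcl1KO and in WT livers, with 95% intervals from the limma fit. Filled points passed an adjusted p under 0.05. Pck1 is the gene whose intervals lie apart, at -0.08 to 0.33 in Mcl1KO and 0.45 to 0.86 in WT livers.

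Pcx encodes pyruvate carboxylase, the mitochondrial entry step. It read 8.95, 8.78, 8.97, 8.91 and 8.93 in fasted Mcl1KO livers and 7.89, 8.06, 8.28, 8.19 and 8.15 in fed Mcl1KO livers. In WT livers it read 8.91, 8.90, 8.84, 8.82 and 8.97 with fasting and 8.0, 7.99, 8.15, 8.30 and 8.21 with food. All 10 fasted livers lay above all 10 fed livers, and the groups of a feeding state overlapped between genotypes. The rise was 0.79 in Mcl1KO (SE 0.09, adjusted p = 1.62e-06) and 0.76 in WT livers (SE 0.09, adjusted p = 6.89e-06). Fasted livers were close to each other, with an SD of 0.07 in fasted Mcl1KO and 0.06 in fasted WT livers.

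Pck1 encodes the cytosolic PEPCK, which turns oxaloacetate into phosphoenolpyruvate. It read 11.28, 11.13, 11.48, 11.51 and 11.33 in fasted Mcl1KO livers and 11.25, 11.25, 11.21, 11.04 and 11.36 in fed Mcl1KO livers. These groups overlapped, with 2 of 5 fasted livers above every fed one, and the difference of 0.13 did not pass the test (SE 0.10, 95% interval -0.08 to 0.33, adjusted p = 0.501). In WT livers Pck1 read 11.63, 11.57, 11.64, 11.49 and 11.45 with fasting and 11.02, 10.92, 10.74, 11.01 and 10.81 with food. Here every fasted liver lay above every fed liver, and Pck1 rose 1.57-fold (log2 0.65, SE 0.10, adjusted p = 8.9e-05). Its signal sits near the top of the array, where 69 of 22206 probe sets had a higher mean and the highest value was 12.56. Whether signal there is compressed was not tested.

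Pck2, the mitochondrial PEPCK gene, was dim, with 8629 probe sets having a higher mean. Its mean was 4.02 ± 0.29 (SD, n = 5) in fasted Mcl1KO, 4.21 ± 0.23 in fed Mcl1KO, 4.24 ± 0.20 in fasted WT and 4.32 ± 0.06 in fed WT livers. All neighbouring groups in this order overlapped. The fasting difference was -0.19 in Mcl1KO (95% interval -0.46 to 0.08, adjusted p = 0.44) and -0.07 in WT livers (-0.35 to 0.20, adjusted p = 0.863). Arrays compress differences of dim probe sets, so these intervals apply to the array signal.

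Fbp1 encodes the bisphosphatase that opposes phosphofructokinase. It read 10.89, 10.60, 10.83, 10.79 and 10.83 in fasted Mcl1KO livers and 10.38, 10.58, 10.64, 10.53 and 10.34 in fed Mcl1KO livers. In WT livers it read 10.73, 10.88, 10.75, 10.50 and 10.86 with fasting and 10.51, 10.45, 10.54, 10.65 and 10.59 with food. In each genotype 4 of 5 fasted livers lay above every fed liver, with fasted Mcl1KO replicate 2 and fasted WT replicate 4 inside the fed range. The difference passed in Mcl1KO (0.29, SE 0.10, adjusted p = 0.041) and not in WT livers (0.19, SE 0.10, adjusted p = 0.308), and the interaction of 0.10 was not called (adjusted p = 0.851). The call in Mcl1KO livers was lost without fed Mcl1KO replicate 1, 4 or 5 and without fasted Mcl1KO replicate 1, 3, 4 or 5 (adjusted p 0.0572 to 0.114), without fasted replicates 3 and 4 together (0.118), with a block for replicate number (0.0729), after quantile normalisation of the deposited values (0.0565), in a fit on the Mcl1KO groups alone (0.089) and with a required log2 change over 0.2 (0.858).

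G6pc encodes the catalytic subunit that frees glucose from glucose-6-phosphate. It read 10.13, 10.18, 10.28, 9.39 and 10.16 in fasted Mcl1KO livers and 9.80, 10.18, 10.20, 10.07 and 10.54 in fed Mcl1KO livers. In WT livers it read 9.82, 10.06, 10.39, 9.27 and 10.02 with fasting and 10.81, 10.44, 9.89, 9.71 and 10.09 with food. All 4 groups overlapped, and mice of a group differed by more than the group means did. The fasting difference was -0.13 in Mcl1KO (SE 0.21, 95% interval -0.57 to 0.31, adjusted p = 0.799) and -0.28 in WT livers (SE 0.21, -0.72 to 0.16, adjusted p = 0.578). The intervals reach to a rise of 1.24-fold in Mcl1KO and of 1.12-fold in WT livers. A fall of up to 1.48-fold and 1.64-fold lies within them too.

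The transaminases Got1 and Gpt2 had, with Ppargc1a, the largest rises. Got1 encodes the cytosolic aspartate aminotransferase of the malate-aspartate shuttle. It read 11.65, 11.15, 10.63, 10.59 and 11.18 in fasted Mcl1KO livers and 8.96, 9.14, 8.59, 8.79 and 8.91 in fed Mcl1KO livers, a rise of 2.16 on the log2 scale (SE 0.17, adjusted p = 4.15e-09). In WT livers it read 10.40, 10.75, 10.99, 10.62 and 10.43 with fasting and 9.08, 8.73, 8.69, 8.55 and 8.76 with food, a rise of 1.87 (SE 0.17, adjusted p = 9.54e-08). Every fasted liver lay above every fed liver. Fasted Mcl1KO livers varied more than the others, with an SD of 0.44 against 0.20 in fed Mcl1KO, 0.25 in fasted WT and 0.19 in fed WT livers, and replicates 3 and 4 were their lowest.

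Gpt2 encodes the mitochondrial alanine aminotransferase, which turns alanine into pyruvate. It read 10.41, 10.19, 10.09, 10.26 and 10.13 in fasted Mcl1KO livers and 8.95, 8.93, 8.63, 9.01 and 8.98 in fed Mcl1KO livers (log2 1.32, SE 0.12, adjusted p = 3.53e-08). In WT livers it read 9.74, 10.28, 10.29, 10.02 and 9.92 with fasting and 9.13, 8.70, 8.80, 8.73 and 8.97 with food (log2 1.19, SE 0.12, adjusted p = 3.75e-07). Fasted and fed livers were apart in both genotypes. The isozyme in the other compartment had smaller differences in each case. Got2, of mitochondria, differed by 0.21 in Mcl1KO livers (adjusted p = 0.125) and rose 1.33-fold in WT livers (log2 0.41, adjusted p = 0.00324). Gpt, of the cytosol, differed by 0.17 in Mcl1KO livers (adjusted p = 0.564) and rose 1.59-fold in WT livers (log2 0.67, adjusted p = 0.00435). With a required log2 change over 0.2 the calls of Got2 (0.25) and Gpt (0.0623) in WT livers were lost, and neither was called for the interaction (adjusted p = 0.559 and 0.338). The differences between isozymes were not tested.

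Ppargc1a encodes PGC-1α. It read 7.89, 7.10, 7.89, 8.05 and 7.5 in fasted Mcl1KO livers and 5.73, 7.01, 5.95, 5.67 and 5.86 in fed Mcl1KO livers (log2 1.64, SE 0.25, adjusted p = 5.01e-05). In WT livers it read 7.45, 7.68, 8.0, 8.20 and 7.63 with fasting and 6.18, 6.82, 5.63, 5.88 and 5.44 with food (log2 1.80, SE 0.25, adjusted p = 4e-05). Every fasted liver lay above every fed liver, although fed Mcl1KO replicate 2 came within reach of the lowest fasted value. The highest adjusted p over the limma alternatives was 0.000846 in Mcl1KO livers (without fasted replicates 3 and 4) and 0.000359 in WT livers (trend and robust moderation).

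Crtc2 encodes the CREB coactivator that glucagon brings to the nucleus. Its readings were 8.71, 8.34, 8.33, 8.12 and 8.45 in fasted Mcl1KO livers and 8.0, 7.84, 7.84, 7.98 and 7.97 in fed Mcl1KO livers (log2 0.46, SE 0.13, adjusted p = 0.0138). In WT livers they were 8.59, 8.49, 8.89, 8.88 and 8.20 with fasting and 8.24, 7.99, 8.03, 8.06 and 7.82 with food (log2 0.58, SE 0.13, adjusted p = 0.00472). The groups were apart in Mcl1KO livers, and in WT livers fasted replicate 5 lay just under fed replicate 1. The call in Mcl1KO livers was lost without fasted Mcl1KO replicate 1 (log2 0.38, adjusted p = 0.0534), and both calls were lost with a required log2 change over 0.2 (adjusted p = 0.231 in Mcl1KO and 0.0979 in WT). Crtc2 lies on chromosome 3, as Mcl1 does, with 127 measured genes between them in the RefSeq table.

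Creb3l3 encodes CREBH, a membrane-bound factor of the liver that is cleaved to enter the nucleus. Its readings were 9.63, 9.48, 9.28, 9.48 and 9.55 in fasted Mcl1KO livers and 8.94, 9.10, 9.01, 9.07 and 9.08 in fed Mcl1KO livers (log2 0.45, SE 0.10, adjusted p = 0.00178). In WT livers they were 9.13, 9.32, 9.28, 8.96 and 9.37 with fasting and 8.80, 8.89, 8.74, 8.72 and 8.65 with food (log2 0.45, SE 0.10, adjusted p = 0.00333). Within each genotype the fasted livers were above the fed ones, and fed Mcl1KO livers were above fed WT livers. Both fasting calls were lost with a required log2 change over 0.2 (adjusted p = 0.0985 in Mcl1KO and 0.173 in WT).

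Loss of Mcl1 was then compared within each feeding state. In fasted mice 0 of the 10 genes passed between Mcl1KO and WT livers, where limma called 4.99% of all probe sets. An unadjusted p under 0.05 was found for 3 of the 10, and for 18.3% of all probe sets. In the fit on the 9860 brighter probe sets, 1371 were called in fasted mice, and 0 of the 10 genes. In fed mice 0 passed, where 0.036% of probe sets were called, and an unadjusted p under 0.05 was found for 2 of the 10 and 6.44% of all probe sets. All 10 genes overlapped between genotypes in fasted mice (3.90% of all probe sets did not overlap), and 8 overlapped in fed mice (1.57% did not). The exceptions in fed mice were Pck1 and Creb3l3.

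Pck1 was higher in all 5 fed Mcl1KO livers (11.04 to 11.36) than in all 5 fed WT livers (10.74 to 11.02). The difference was 0.32 (SE 0.10, 95% interval 0.12 to 0.52), and it did not pass over all probe sets (adjusted p = 0.45), while the two-sided exact permutation test of this gene alone gave p = 0.00794, the smallest that 5 against 5 allows. In fasted mice the difference went the other way, at -0.21 (95% interval -0.41 to 0.00, adjusted p = 0.259, exact permutation p = 0.0397), with 3 of 5 Mcl1KO livers below every WT liver. In all 40 such exact tests were made, on 10 genes in 4 comparisons, and their p-values are unadjusted.

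The interaction is the fasting difference in Mcl1KO livers minus that in WT livers, and 0 of the 10 genes passed it, where 0.135% of all probe sets were called. An unadjusted p under 0.05 was found for 1 of the 10 and for 11.2% of all probe sets. That gene was Pck1, at -0.53 (SE 0.14, 95% interval -0.81 to -0.24, unadjusted p = 0.000836, adjusted p = 0.101). It passed with trend and robust moderation (adjusted p = 0.0272), without fasted Mcl1KO replicate 3 (-0.56, adjusted p = 0.0464) and without fasted Mcl1KO replicates 3 and 4 (-0.63, adjusted p = 0.0148). Over the alternatives the adjusted p ran up to 0.719, with a required log2 change over 0.2. The order of its group means was fasted WT at 11.55 ± 0.09, fasted Mcl1KO at 11.35 ± 0.16, fed Mcl1KO at 11.22 ± 0.12 and fed WT at 10.90 ± 0.12 (SD, n = 5 each), and in this order fed WT alone did not overlap with its neighbour.

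Creb3l3 was higher in fed Mcl1KO livers by 0.28 (SE 0.10, 95% interval 0.08 to 0.48, adjusted p = 0.557, exact permutation p = 0.00794), without overlap. In fasted mice the difference was 0.27 (SE 0.10, 0.07 to 0.47, adjusted p = 0.108, exact permutation p = 0.0317), with 4 of 5 Mcl1KO livers above every WT liver. The interaction was -0.01 (95% interval -0.29 to 0.27). Without fasted Mcl1KO replicate 3 the difference in fasted mice was 0.32 and passed (adjusted p = 0.046).

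Got1 differed by 0.40 between fasted Mcl1KO and fasted WT livers (SE 0.17, 95% interval 0.05 to 0.75, adjusted p = 0.192, exact permutation p = 0.0952). Without fasted Mcl1KO replicates 3 and 4 it was 0.69 and passed (adjusted p = 0.00713), a choice made after these arrays were seen to stand apart. For the other members the estimates between genotypes lay between -0.22 and 0.16 in both feeding states. The 95% intervals of the interaction were widest for Ppargc1a (-0.89 to 0.58) and G6pc (-0.47 to 0.77) and narrowest for Pcx (-0.24 to 0.31), so differences of that size in the fasting response lie within the error.

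**Figure D3:**
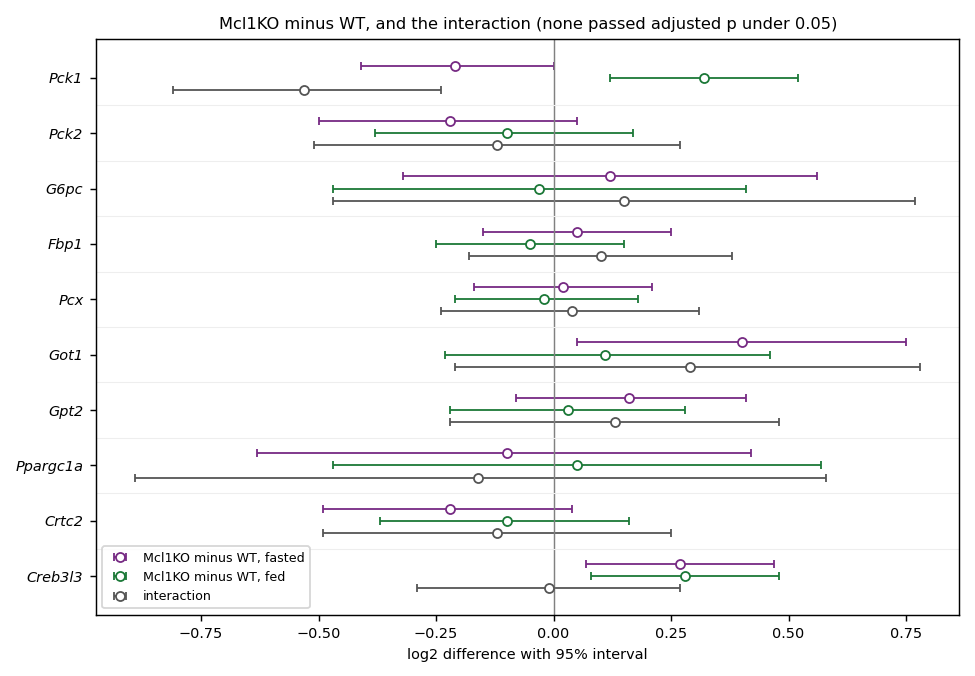
Mcl1KO minus WT log2 difference of each gene in fasted and in fed mice, and the interaction, with 95% intervals from the limma fit. Open points did not pass an adjusted p under 0.05, which holds for all 30 estimates. Pck1 lies above 0 in fed mice (0.32) and below it in fasted mice (-0.21), and Creb3l3 lies above 0 in both (0.28 and 0.27).

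The other steps of the route were read from 20 measured genes of a list of 25. In Mcl1KO livers fasting raised 8 and lowered 2, with a median of 0.20, and in WT livers it raised 4 and lowered 0, with a median of 0.27. More probe sets were called over the whole array in Mcl1KO too, at 14.4% against 6.79% in WT livers. Slc37a4, which carries glucose-6-phosphate to the site where the G6pc product acts, rose 2.48-fold in Mcl1KO (log2 1.31, SE 0.14, adjusted p = 3.3e-07) and 2.0-fold in WT livers (log2 1.0, SE 0.14, adjusted p = 3.03e-05). Mdh2, the mitochondrial malate dehydrogenase, rose 1.63-fold in Mcl1KO (adjusted p = 8.76e-05) and 1.31-fold in WT livers (adjusted p = 0.0365). Mpc1, of the mitochondrial pyruvate carrier, rose 1.53-fold in Mcl1KO livers (adjusted p = 0.000622) and differed by 0.26 in WT livers (adjusted p = 0.235). Slc2a2, the glucose transporter GLUT2, fell 1.86-fold in fasted Mcl1KO livers (log2 -0.89, adjusted p = 0.00816, and 0.0534 in a fit on the Mcl1KO groups alone), and Aqp9, the glycerol channel, fell 1.45-fold (log2 -0.54, adjusted p = 0.00319, and 0.0725 with a required log2 change over 0.2). In WT livers they differed by -0.12 (adjusted p = 0.871) and -0.29 (adjusted p = 0.202).

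Among fasted mice, Slc2a2 was 1.97-fold lower in Mcl1KO than in WT livers (log2 -0.98, SE 0.23, adjusted p = 0.0158). That call was lost without fasted Mcl1KO replicate 2 (adjusted p = 0.0564) and in a fit on the fasted groups alone (0.0974). Ldha, a lactate dehydrogenase gene, was 1.40-fold higher there (adjusted p = 0.0299), a call lost under 10 of its alternatives, among them leaving out fasted WT replicate 2, 3 or 4 or fasted Mcl1KO replicate 2 or 4 (adjusted p 0.0515 to 0.0918). Neither was called for the interaction (adjusted p = 0.35 for Slc2a2 and 0.532 for Ldha), although Slc2a2 (-0.78) passed without fasted Mcl1KO replicate 3 (-1.02, adjusted p = 0.049) and without replicates 3 and 4 (-1.31, adjusted p = 0.000232).

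Genes of amino acid supply had 7 of 12 measured members higher in fasted Mcl1KO livers and 7 of 12 in fasted WT livers, and 0 lower in either, with medians of 0.33 and 0.45. Over all probe sets 8.2% were called higher with fasting in Mcl1KO and 3.1% in WT livers. Asl, the argininosuccinate lyase gene, rose 3.22-fold in Mcl1KO (adjusted p = 2.11e-09) and 2.93-fold in WT livers (adjusted p = 1.66e-08). Aass, of lysine breakdown, rose 2.34-fold and 1.76-fold (adjusted p = 5.04e-07 and 0.000253), and Hal, the histidine ammonia-lyase gene, rose 1.92-fold and 2.09-fold (adjusted p = 0.000264 and 0.000172). Against these, genes of glucose use had 3 of 8 lower in fasted Mcl1KO livers and 2 of 8 in fasted WT livers, and 0 higher, with medians of -0.18 and -0.24. Over all probe sets 6.25% were called lower with fasting in Mcl1KO and 3.68% in WT livers. Pklr, the liver pyruvate kinase that consumes phosphoenolpyruvate, fell 2.34-fold in Mcl1KO (log2 -1.23, adjusted p = 0.00084) and 3.10-fold in WT livers (log2 -1.63, adjusted p = 9.31e-05). Pfkfb3, whose product makes an activator of phosphofructokinase, fell 3.46-fold and 3.0-fold (adjusted p = 0.000481 and 0.00349). Gckr, the glucokinase regulator, fell 1.72-fold in Mcl1KO livers (log2 -0.78, adjusted p = 0.00429) and differed by -0.02 in WT livers (adjusted p = 0.977), with an interaction of -0.76 that was not called (adjusted p = 0.236, against 0.0255 without fasted Mcl1KO replicate 3 and 0.00817 without replicates 3 and 4).

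Of 28 other measured regulators of these genes, 3 rose and 4 fell in fasted Mcl1KO livers, and 1 rose and 1 fell in fasted WT livers, where 14.4% and 6.79% of all probe sets were called. The median differences were -0.06 and 0.15. Cebpa, a liver factor that binds the Pck1 promoter, fell 1.96-fold in Mcl1KO (log2 -0.97, adjusted p = 1.87e-05) and 1.49-fold in WT livers (log2 -0.58, adjusted p = 0.00885). Nr0b2, the repressor SHP, fell 2.94-fold in Mcl1KO livers (log2 -1.56, adjusted p = 0.000281) and Nr4a1, an orphan receptor, fell 4.0-fold (log2 -2.0, SE 0.54, adjusted p = 0.0128, and 0.051 without fed Mcl1KO replicate 5). In WT livers Nr0b2 differed by -0.74 (adjusted p = 0.131) and Nr4a1 by -0.58 (adjusted p = 0.675). Neither Nr0b2 nor Nr4a1 was called for the interaction (adjusted p = 0.444 and 0.504). Nr4a1 differed by 1.21 between genotypes in fed mice (adjusted p = 0.727). Hnf4a, a partner of PGC-1α, rose 1.40-fold in Mcl1KO livers (log2 0.48, adjusted p = 0.0122) and differed by 0.42 in WT livers (adjusted p = 0.0501). Sik2, a kinase that holds CRTC2 in the cytosol, rose 1.42-fold in Mcl1KO livers (log2 0.50, adjusted p = 0.00471) and differed by 0.38 in WT livers (adjusted p = 0.0631). Sirt1, a deacetylase of PGC-1α, rose 1.38-fold in Mcl1KO livers (log2 0.47, adjusted p = 0.0206) and differed by -0.32 in WT livers (adjusted p = 0.208). None of these 3 was called for the interaction (adjusted p = 0.949, 0.851 and 0.0849). With a required log2 change over 0.2 their calls were lost (adjusted p = 0.198, 0.109 and 0.264), as was that of Cebpa in WT livers (0.141). The call of Sirt1 was lost without fed Mcl1KO replicate 1 or 2 or fasted Mcl1KO replicate 1 or 2 (adjusted p 0.0518 to 0.0765). In a fit on the Mcl1KO groups alone the calls of Sirt1 (0.0574) and Hnf4a (0.052) were both lost. Klf15, a fasting factor of amino acid use, rose 1.40-fold in WT livers (log2 0.48, adjusted p = 0.0109, and 0.257 with a required log2 change over 0.2) and differed by 0.01 in Mcl1KO livers (adjusted p = 0.989), with an interaction of -0.48 that was not called (adjusted p = 0.239). Between genotypes in fasted mice Klf15 was 1.49-fold lower in Mcl1KO (log2 -0.58, adjusted p = 0.00588) and Cebpa 1.5-fold lower (log2 -0.59, adjusted p = 0.0152, and 0.086 in a fit on the fasted groups alone).

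Oxidative genes known as PGC-1α targets had 10 of 13 measured members higher in fasted Mcl1KO livers (median 0.65) and 3 of 13 in fasted WT livers (median 0.17), where 8.2% and 3.1% of all probe sets were called higher. Ppargc1a itself rose by 1.64 and 1.80. Lpin1, a coactivator and phosphatidate phosphatase gene, rose 3.21-fold in Mcl1KO (adjusted p = 1.69e-05) and 3.28-fold in WT livers (adjusted p = 3.19e-05). Acadm, of fatty acid oxidation, rose 2.09-fold and 1.83-fold (adjusted p = 3.21e-07 and 1.16e-05). Pdk4, which restrains pyruvate oxidation, rose 7.65-fold in Mcl1KO livers (log2 2.93, SE 0.41, adjusted p = 1.49e-05) and measured 0.81 in WT livers (adjusted p = 0.311). In the interaction 0 of 13 passed, Pdk4 having 2.12 (SE 0.57, adjusted p = 0.119, against 0.0209 without fasted Mcl1KO replicate 3 and 0.00051 without replicates 3 and 4).

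Genes reported as CREB3L3 targets in mouse liver showed 3 rises and 1 fall among 7 measured members with fasting in Mcl1KO livers, and 3 rises and 0 falls in WT livers. Of all probe sets, 8.2% rose and 6.25% fell in Mcl1KO livers, and 3.1% rose and 3.68% fell in WT livers. Apoa4, an apolipoprotein gene, rose 8.82-fold in Mcl1KO (adjusted p = 4.41e-08) and 7.98-fold in WT livers (adjusted p = 2.11e-07), and Apoa5, which promotes lipoprotein lipase action, rose 1.78-fold and 1.86-fold (adjusted p = 0.00118 and 0.00131). Cidec, of lipid droplets, had the one interaction called in these lists (log2 2.74, SE 0.50, adjusted p = 0.022), lost with trend and robust moderation (0.0585), with a required log2 change over 0.2 (0.0541) and without fasted WT replicate 2 (0.0501). Crp, the C-reactive protein gene, fell 1.25-fold in Mcl1KO livers (adjusted p = 0.0483), a call lost under 21 alternatives. Of 14 amino acid stress genes known as ATF4 targets, 2 rose in Mcl1KO (Atf5 and Sesn2) and 2 in WT livers (Asns and Atf5), and 0 fell. These counts too stand beside 8.2% and 3.1% of all probe sets called higher. Atf5, a transcription factor gene, rose 2.51-fold and 2.0-fold (adjusted p = 3.68e-06 and 0.000298), and Asns, the asparagine synthetase gene, rose 2.26-fold in WT livers (adjusted p = 0.00602). In fasted mice, where 4.99% of all probe sets were called between genotypes, Mcl1KO livers had 4 of 13 PGC-1α targets, 1 of 14 ATF4 targets (Psat1), 1 of 12 amino acid supply genes and 1 of 7 CREB3L3 targets higher than WT livers and 0 lower. They also had 1 of 8 glucose use genes higher and 1 lower, 1 of 20 other steps higher and 1 lower, and 2 of 28 regulators lower. Cidec was 6.95-fold higher there (adjusted p = 8.44e-05) and Pdk4 4.56-fold (adjusted p = 0.0035), while Psat1, Nrf1, Idh3a, Pkm, Gckr and Aass each lost their call in at least 1 fit without a single array. With a required log2 change over 0.2, the calls between genotypes in fasted mice of genes named from the 7 lists, other than Cidec and Pdk4, were lost (adjusted p 0.102 to 0.44). Atf4, the gene of the regulator itself, was 1.69-fold higher in fasted Mcl1KO than in fasted WT livers (log2 0.76, adjusted p = 0.0118, and 0.115 with that required change). It rose 1.72-fold with fasting in Mcl1KO livers (adjusted p = 0.0021) and differed by -0.18 in WT livers (adjusted p = 0.687). Its interaction of 0.95 was not called (adjusted p = 0.0941), and it passed without fasted Mcl1KO replicate 3 (1.11, adjusted p = 0.0102) and without replicates 3 and 4 (1.10, adjusted p = 0.00689). In the comparison of fasted mice Pck2, which ATF4 is known to activate, differed by -0.22 (adjusted p = 0.408). In fed mice no gene of the 7 lists passed between genotypes (limma adjusted p over all probe sets), and those with an unadjusted p under 0.05 numbered 3 of 28 regulators, 2 of 12 amino acid supply genes, 2 of 14 ATF4 targets, 1 of 8 glucose use genes, 1 of 7 CREB3L3 targets, 1 of 13 PGC-1α targets and 0 of 20 other steps, beside 6.44% of all probe sets.

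**Figure D4:**
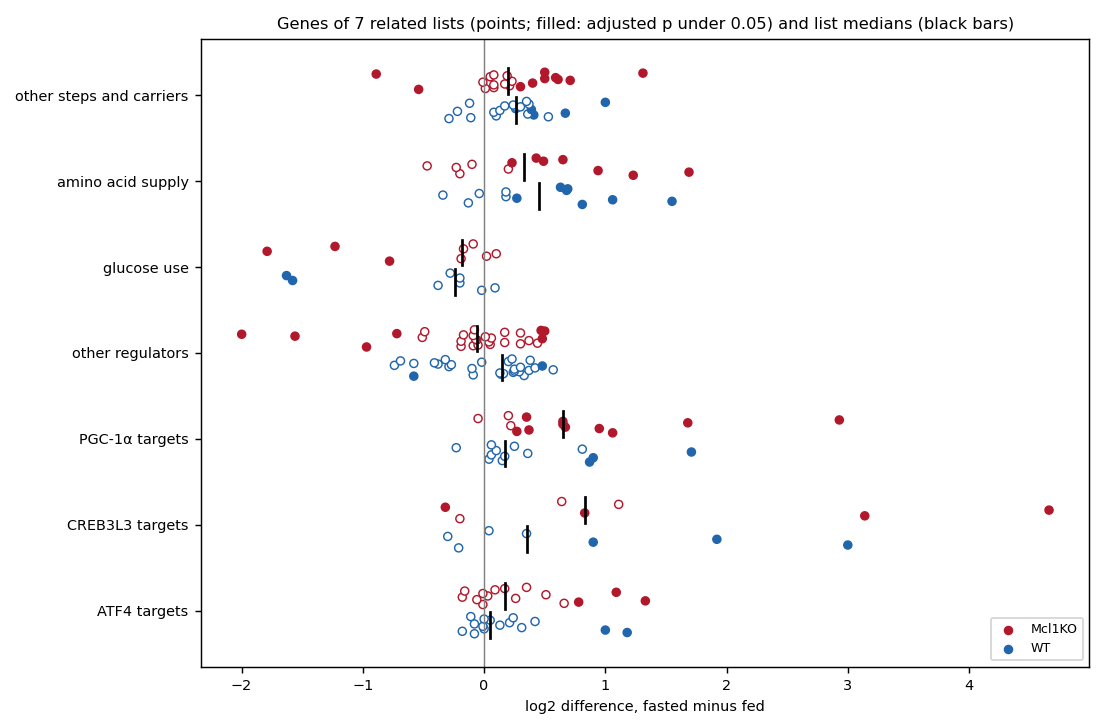
Fasted minus fed log2 difference of each measured gene of 7 related lists, in Mcl1KO and WT livers. Points are genes, filled where the adjusted p was under 0.05, and black bars are list medians. The row of ATF4 targets also holds Atf4 itself. The median of the PGC-1α targets is 0.65 in Mcl1KO and 0.17 in WT livers, and genes of glucose use lie mostly below 0 in both.

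Averages of markers of other cells and of liver zones differed between the groups. Periportal hepatocyte markers (5 measured), which mark the zone where Pck1 and G6pc are most expressed, averaged 9.19 to 9.95 per liver in fasted Mcl1KO and 8.85 to 9.53 in fed Mcl1KO livers, and 9.41 to 9.89 in fasted WT and 8.96 to 9.33 in fed WT livers. Of these 3 rose and 1 fell in Mcl1KO livers and 3 rose and 0 fell in WT livers. Fasting calls covered 14.4% of all probe sets in Mcl1KO and 6.79% in WT livers. Pericentral markers (6 measured) averaged 6.64 to 7.15 in fasted and 7.53 to 8.11 in fed Mcl1KO livers, and 7.12 to 7.49 in fasted and 7.71 to 7.88 in fed WT livers, with 2 and 1 of 6 lower. Over these 6 genes the median fasting difference was -0.44 in Mcl1KO and -0.01 in WT livers, where 3 lay above 0. The largest single falls were -4.14 and -3.1, so 1 gene weighs heavily on each average. Kupffer cell markers (10 measured) averaged 4.94 to 5.72 in fasted Mcl1KO, 5.32 to 5.72 in fed Mcl1KO, 4.49 to 4.84 in fasted WT and 5.21 to 5.69 in fed WT livers. In fasted mice 4 of the 10 were higher in Mcl1KO and 0 lower, where 4.99% of all probe sets were called between genotypes. In that comparison 2 of 6 pericentral and 1 of 5 periportal markers were lower in Mcl1KO and 0 higher. Stellate cell markers had 1 of 7 higher and 0 lower. Of 6 sinusoidal endothelial markers 0 were called, with a median difference of 0.33. The part of these shifts in the results above was not tested. Adipocyte and kidney tubule markers, from other tissues that express Pck1, averaged 2.27 to 2.82 and 2.35 to 2.68 over all livers, with 0 called in any comparison. Exocrine pancreas markers (5 measured) averaged 3.07 to 3.50 in fasted Mcl1KO, 2.88 to 3.11 in fed Mcl1KO and 2.91 to 3.39 in fed WT livers. In fasted WT livers they averaged 3.14 to 4.40 (median 3.22), with Ctrb1 up to 5.24 and Cpa1 up to 5.0. Of these markers 0 were called in any comparison, and carry-over of pancreas was not tested.

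The 10 genes were compared with each other over the 20 livers, as a description without a test, since the points share their groups. Got1 and Gpt2 followed each other most closely (Pearson r = 0.98), then Pcx and Gpt2 (0.92) and Pcx and Got1 (0.91), while Pck2 and G6pc correlated at 0.02 at most with any other member. With group means subtracted, which leaves differences between mice of a group, the median over 45 pairs was 0.07, against 0.67 before. Got1 and Gpt2 kept the highest value (0.67), followed by Fbp1 and Pcx (0.66) and by Crtc2 and Got1 (0.64), and the lowest was that of Pck2 and Pcx (-0.42). G6pc and Pck1 correlated at 0.14.

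**Figure D5:**
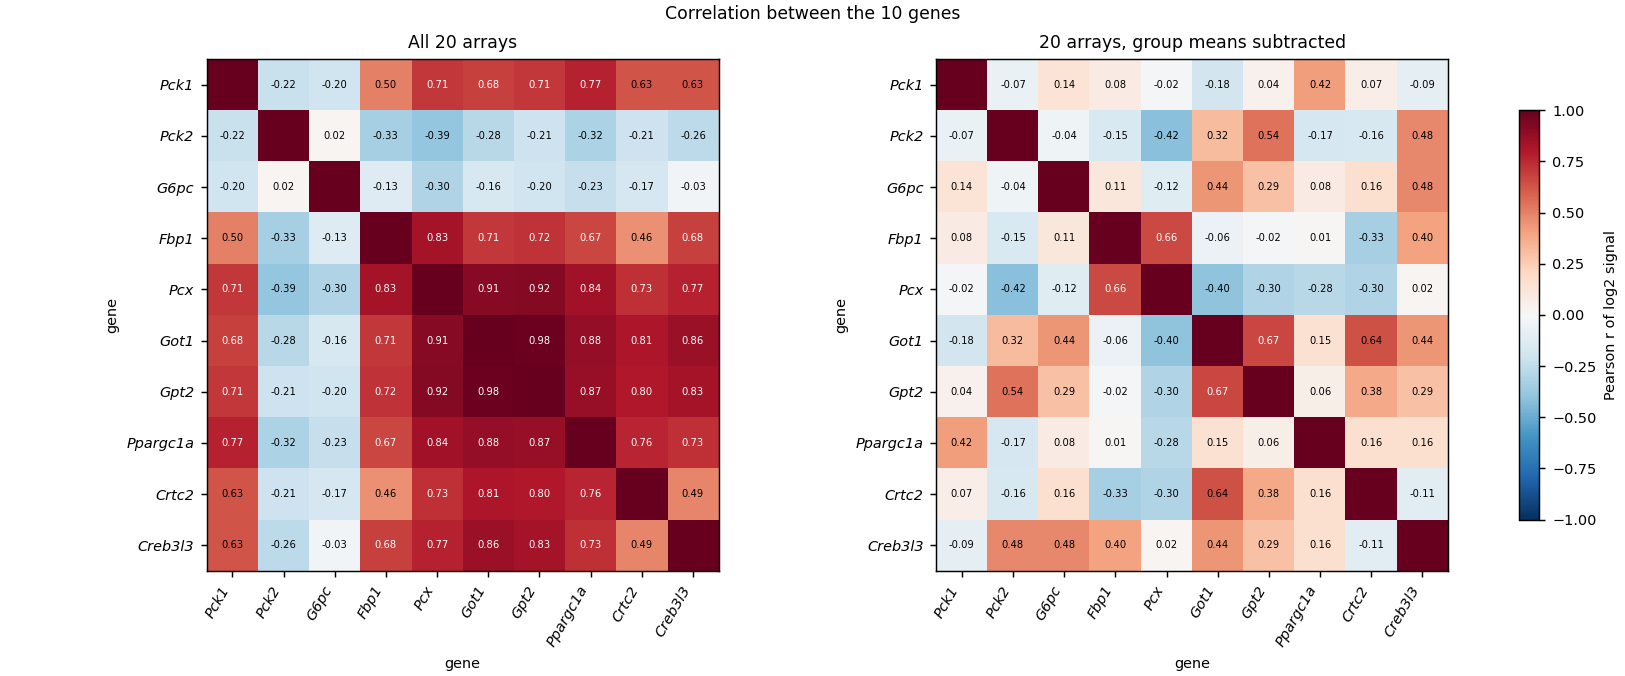
Pearson r of log2 signal between each pair of the 10 genes, over all 20 livers (left) and after group means were subtracted (right). Colour runs from -1 to 1. On the left the rows of Pck2 and G6pc lie at 0.02 or below, while the other genes correlate with each other at 0.46 to 0.98.

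The genes most like each member over all 20 livers were found among named genes outside the set. Asl was the most alike to both Got1 and Gpt2 (r = 0.985 each), followed for Gpt2 by Cps1 (0.98) and Arg1 (0.974), and for Got1 by Grn (0.977) and Sult1d1 (0.972). Pcx was most like Mat1a (0.97), of S-adenosylmethionine synthesis, Retsat (0.963) and Acadm (0.96). Ppargc1a was most like Gldc (0.944), of glycine cleavage, Tat (0.932), the tyrosine aminotransferase gene, and Cyp39a1 (0.925), and Creb3l3 was most like Tmem62 (0.943), Lrp5 (0.938) and the lipid droplet gene Plin5 (0.937). Pck1 was most like Sfxn2 (0.921), Acox2 (0.878) and Got2 (0.864). Crtc2 (highest r 0.902, Arhgap44), Fbp1 (0.86, Psmd6), Pck2 (0.813, Tmem233) and G6pc (0.775, Poll) had less close partners. After group means were subtracted Got1 was most like Aass (0.903), and Plin5 stayed among the closest 3 genes for Creb3l3 (0.832). The highest r of the other members then ran from 0.806 (Pck2, Polr3d) to 0.847 (Pck1, Snai1). Each partner is the best match among all named genes outside the set. How high such a best match reaches by chance over 20 livers was not tested.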

How the data were processed

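RNA from 20 mouse livers was hybridised to Affymetrix-type expression arrays (GeneChip WT PLUS labelling, per the labels' protocols), 1 array per mouse. The deposited values are log2 signals per probe set that the authors made by RMA, with Partek 7.0 named beside it in the submitters' processing notes. The log base is not stated there and was taken as log2 from RMA and from the range of the values. Of 22206 probe sets, 19572 had 1 gene symbol in the platform table given, and 2634 had none. Symbols covered 174 of 198 genes in the lists, and the others were not used here.

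From these values limma 3.58.1 in R 4.3.3 fitted 1 mean per group to all 20 arrays and all probe sets, with empirical Bayes moderation (prior degrees of freedom 6.95) and Benjamini-Hochberg adjustment over all probe sets. Single genes also had a two-sided exact permutation test over 252 splits, whose smallest p is 0.00794. The fit was tested on simulated data. Arrays give no read depth, so the 5 mice of a group limit the precision. Array medians lay between 3.35 and 3.47, and 0 pairs of arrays were identical. Replicates are labelled as biological, and no batch or scan information was used. The alternatives were a block for replicate number, median centring, quantile normalisation, trend and robust moderation, limma's array weights, a fit on the compared groups, leaving out dim probe sets (log2 value over 4 on at least 5 arrays kept), a required log2 change over 0.2, and each array left out. Leaving out fasted Mcl1KO replicates 3 and 4 was added after the data were seen. Besides the 10 genes and Mcl1, the genes to name were, for each list and comparison, up to 3 called in each direction by size, or up to 2 with the largest change where none was called, and for each of the 10 genes the 3 most alike. The 10 genes, the lists and the tests were chosen with earlier results of these data known. Figures were drawn with matplotlib 3.10.9.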

Additional observations from a re-analysis of the deposited data

Results flagged for a closer look

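In 3 of 40 sets of 5 livers, 1 liver lay far from the other 4 of its group, measured as the gap to its nearest neighbour over the range of the group (limit 0.71). Chance alone gives about 1 in 20 such sets. G6pc read 9.39 in fasted Mcl1KO replicate 4, with a gap of 0.826 of the range. Ppargc1a read 7.01 in fed Mcl1KO replicate 2 (0.788), the fed liver nearest to the fasted ones. Gpt2 read 8.63 in fed Mcl1KO replicate 3 (0.786). Without each array in turn, the fasting difference of G6pc in Mcl1KO livers ran from -0.22 to 0.03, that of Ppargc1a from 1.55 to 1.88 and that of Gpt2 from 1.25 to 1.35, so the calls of Ppargc1a and Gpt2 were kept each time.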

How the results depend on the processing

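For the 10 genes over 1440 limma alternatives, 1385 values kept sign and side of the threshold, 17 lost a call, 5 gained one, and 33 changed sign, none of them called. With a required log2 change over 0.2, 4 of the genes were called for fasting in Mcl1KO livers, and the probe sets called numbered 1551 for fasting in Mcl1KO (3208 as reported), 587 for fasting in WT (1507), 162 between genotypes in fasted mice (1109) and 7 for the interaction (30). Between genotypes in fed mice, where 8 were called, trend and robust moderation called 15 and array weights 26. In fasted mice a fit on those groups alone called 399. For the interaction, array weights called 55, the filter on dim probe sets (9860 kept) 56, and trend and robust moderation called 1 of the 10 genes (Pck1). Without fasted Mcl1KO replicates 3 and 4, chosen after seeing the data, 18 probe sets were called in fed mice, 1989 with 1 of the 10 genes (Got1) in fasted mice, and 765 with 1 of the 10 (Pck1) for the interaction. Leaving out each array in turn gave 5 to 7 of the 10 genes for fasting in Mcl1KO, 7 to 7 in WT, 0 to 0 between genotypes in fed mice, 0 to 1 in fasted mice and 0 to 1 for the interaction, where the 1 came without fasted Mcl1KO replicate 3. The probe sets called ran from 2689 to 3418 for fasting in Mcl1KO, 1124 to 1580 in WT, 7 to 16 between genotypes in fed mice, 497 to 1707 in fasted mice and 9 to 331 for the interaction, and the highest of the last pair (1707 and 331) came without fasted Mcl1KO replicate 3. The lowest, 497, came without fasted Mcl1KO replicate 2, and 9 without fasted WT replicate 2. The cause of these shifts was not tested. Deviations of same-numbered livers from their group means correlated at -0.19 to 0.166. Differently numbered livers were not compared in this way, so pairing by replicate number was not tested. With the replicate block 6 of the 10 genes were called for fasting in Mcl1KO, 7 in WT and 0 in the other comparisons, with 3045, 1375, 8, 924 and 20 probe sets for fasting in Mcl1KO, fasting in WT, genotype in fed mice, genotype in fasted mice and the interaction. The 40 exact permutation tests had an unadjusted p under 0.05 in 5 comparisons that limma did not call, those of Pck1 and Creb3l3 between genotypes in both feeding states and Fbp1 with fasting in WT livers (0.0476). Choosing between probe sets was not run, since each gene had 1, and the interaction had neither an exact test nor a fit on fewer groups. With 5 mice a group, small differences lie within the error, and Pck2 is dim while Pck1 is near the top of the signal range.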
